A study of Homo sapiens with 3 samples.

Results

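Ile1h, Ile2h, Val1h and Val4h are the array probes for the tRNAs of isoleucine and valine, the amino acids whose aliphatic side chain branches at the beta carbon. They were taken by probe name and are 4 of the 41 human tRNA probes on the array. The samples are MCF-10A cells, a non-tumorigenic human breast epithelial line, treated for 72 h with 20 nM of an siRNA against eIF3e or with 20 nM of a control siRNA. The eIF3 complex, to which eIF3e belongs, starts translation, and the comparison asks whether tRNA levels differ after its knockdown. The labels describe 2 knockdown and 3 control cultures, paired on two-colour arrays into 3 ratios. Knockdown RNA carried Cy3 and control RNA Atto635 in each ratio, and 0 ratios had the dyes exchanged. Ratio 1 sets knockdown RNA 1 against control RNA 1, ratio 2 sets knockdown RNA 1 against control RNA 2, and ratio 3 sets knockdown RNA 2 against control RNA 3. The arrays hold tRNA probes only, so neither the depletion of eIF3e nor the identity of the cells could be checked from them.

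A tRNA carries an amino acid to the ribosome and reads its codons through the anticodon. Isoleucyl-tRNA synthetase and valyl-tRNA synthetase attach these 2 amino acids, and because valine differs from isoleucine by a single methylene group, isoleucyl-tRNA synthetase removes valine that it has attached by mistake. In human cells most isoleucine tRNA genes have the anticodon AAT, and for valine AAC is among the main ones. In both, the adenosine at the first anticodon position is edited to inosine, which widens the set of codons read. The RefSeq table used here (GRCh38.p14) lists 22 nuclear isoleucine tRNA genes, of which 14 have the anticodon AAT, 5 have TAT and 3 have GAT. The 5 TAT genes are 93 to 94 bases long, against 74 for the others, and carry an intron as background knowledge has it. For valine it lists 28 nuclear genes, 13 with CAC, 10 with AAC and 5 with TAC, and 1 mitochondrial gene stands beside them for each amino acid. The probe names carry no anticodon, so which of these isoacceptors a probe reads is not known here.

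The ratios are read as the amount of tRNA whose 3' end could be ligated to the dye. The protocol in the labels assigns periodate oxidation to abundance arrays and deacylation alone to charging arrays. As background, periodate oxidises tRNA that has no amino acid attached and so serves to measure charging, and the labels call these samples total tRNA. Abundance and charging therefore cannot be told apart from the labels. Each array was scaled on 4 spiked tRNA standards of bacterial or yeast origin, and a log2 ratio of 0 means the level of the median standard. A separate dye control array was deposited, and the labels used here do not say which RNA its channels carried. Values are therefore given without it first and then with its log2 ratio subtracted. The subtraction takes the dye control as 1 RNA in both dyes. The standards themselves did not all lie at 0. Without the dye control, Yeast Phe-3 was at 0.31, 0.31 and 0.40 in ratios 1, 2 and 3, and E.c. Ala-5 at -0.17, -0.07 and -0.04. With it subtracted, E.c. Lys-2 was at 0.37, 0.32 and 0.27, and E.c. Ala-5 at -0.20, -0.11 and -0.13. Distances of the probes from 0 are to be read against this spread.

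Ile1h had the second highest fitted ratio of the 41 human probes and was the one member called higher without the dye control, at 1.37-fold. Val1h was the one member called higher with the dye control subtracted, at 1.33-fold and also second of 41. Val4h was above 0 in 3 of 3 ratios both ways and was called in neither. Of the 41 human probes, 29 were above 0 in all 3 ratios without the dye control and 8 with it subtracted. Ile2h was at 0.22 in log2 without the dye control, close to the median human probe, and at -0.04 with it. A call here is a Benjamini-Hochberg adjusted p under 0.05 in limma over the 41 probes. Without the dye control, 9.76% of the probes were called higher and 2.44% lower. With it, 4.88% were called higher and 0% lower (1 probe lower at an unadjusted p under 0.05). The members' counts of 1 of 4 each way are to be read against these shares of 4 and 2 probes in 41.

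**Figure D1:**
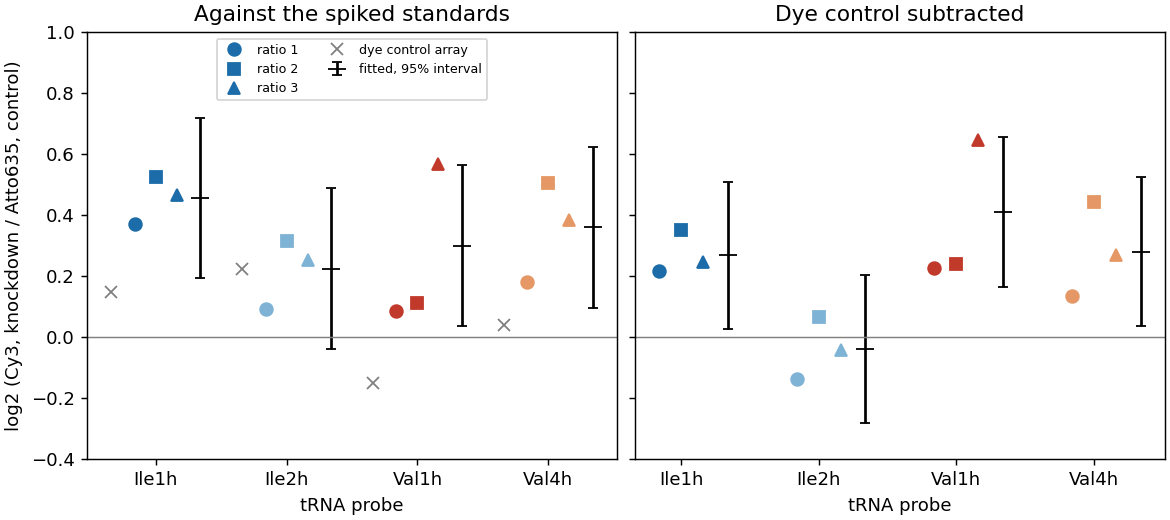
Log2 ratio of knockdown over control for the 4 probes, with ratios 1, 2 and 3 as circle, square and triangle, the fitted value with its 95% interval in black, and on the left the dye control array as a grey cross. On the left Ile1h runs from 0.37 to 0.52 and Val1h from 0.08 to 0.57, and on the right Ile2h straddles 0.

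The spots behind these values were not equal. Each probe was printed 16 times over 8 blocks of the array. Ile1h and Val1h were the 2 of 41 human probes with all 4 of their spots in blocks 5 and 9 under 100 Cy3 intensity units on the array of ratios 1 and 2, on the array of ratio 3 and on the dye control array. Their readings in these blocks ran from 0 to 68 units, while the other 12 spots of each probe were brighter, from 254 to 18559 units. The scan did not flag all of these empty spots: 3 of Ile1h and 1 of Val1h passed unflagged on the array of ratio 1, here called array 1, 0 of Ile1h and 1 of Val1h on the array of ratio 3, here called array 3, and 2 of each on the dye control. Ile2h and Val4h had signal in blocks 5 and 9, and Val4h kept all 16 spots in each ratio. Saturated pixels made up 0% of the spots of the 4 probes.

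**Figure D2:**
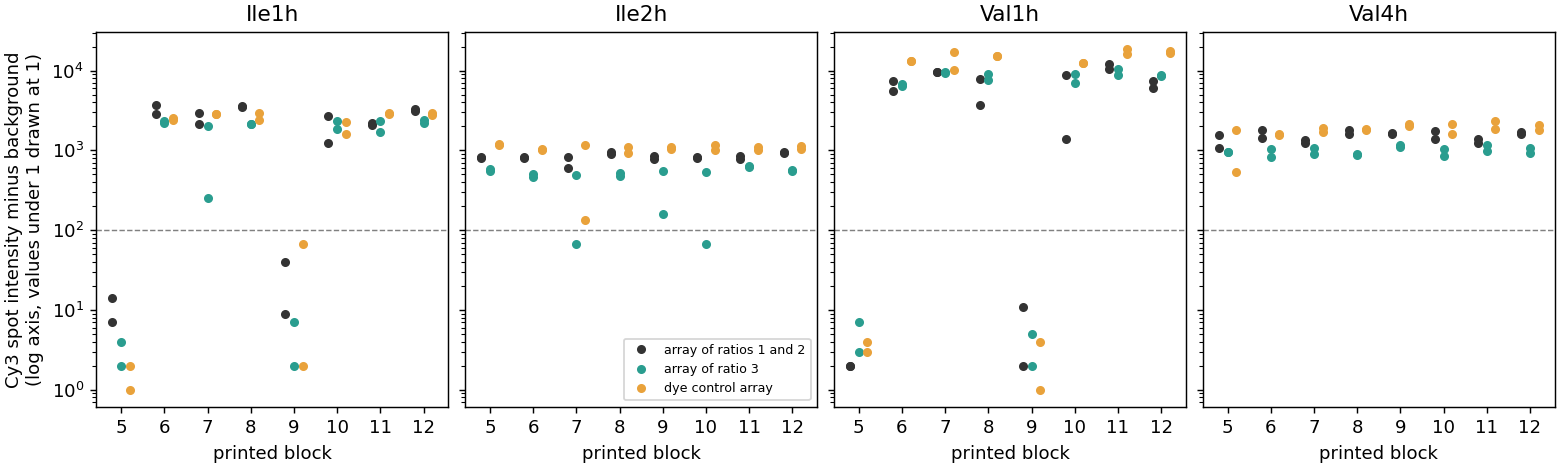
Cy3 intensity of each of the 16 spots of a probe (log axis, values under 1 drawn at 1) by printed block, for 3 arrays in black, green and orange, with a dashed line at 100. The spots of Ile1h and Val1h in blocks 5 and 9 lie below the line on each array, and those of Val4h lie above it.

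The isoleucine probe Ile1h was mostly bright in both channels outside the empty blocks. Exceptions in Atto635 were a spot of block 8 at 21 in ratio 2 and a flagged spot of block 7 at 78 in ratio 3. On array 1 its 12 bright spots, those at 100 or more in both channels, had a median Cy3 intensity of 2896 (1238 to 3688) and a median Atto635 intensity of 1293.5 (581 to 1650). In ratio 3 the 11 bright spots had medians of 2213 in Cy3 and 676 in Atto635. The log2 ratios of Ile1h were 0.37 in ratio 1, 0.52 in ratio 2 and 0.47 in ratio 3. The 3 values lay close together, with an SD of 0.077, the smallest of the 4 probes. The fitted value was 0.46 (SE 0.13, 95% interval 0.19 to 0.72, limma adjusted p = 0.0126, higher in 3 of 3 ratios).

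Ile1h ranked at places 2, 4 and 4 among the human probes in ratios 1, 2 and 3. All 12 bright spots of ratio 1 and all 11 of ratio 3 lay above the median human probe of their array. The spots of a probe share 1 labelled RNA and are not replicates, so this adds no support to the probe's value. On the dye control array Ile1h itself was at 0.15, close to the median human probe at 0.11. With the dye control subtracted its log2 ratios were 0.22, 0.35 and 0.25, still above 0 in 3 of 3, and the fitted value of 0.27 (SE 0.12, limma adjusted p = 0.203) was not called. The medians of all human probes were then -0.09, 0.13 and 0.11, so Ile1h stood above the median probe in each ratio. The call without the dye control was also lost without ratio 3, where the value was 0.45 (limma adjusted p = 0.648). In that fit 0 of the human probes were called higher or lower.

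Ile2h, the other isoleucine probe, was dimmer. Its 16 spots on array 1 had a median of 824.5 in Cy3 (604 to 949) and 458 in Atto635 (333 to 537). In ratio 3 the medians over 14 unflagged spots were 543 and 158.5. The log2 ratios were 0.09, 0.31 and 0.25, and the medians of the human probes in the same ratios were 0.05, 0.26 and 0.28. Ile2h thus followed the median probe, ranking 12th, 19th and 24th. The fitted value was 0.22 (SE 0.13, 95% interval -0.04 to 0.49, limma adjusted p = 0.204), and without ratio 1 it was called at 0.28 (adjusted p = 2.6e-04). In that fit 31 of the 41 human probes were called higher. The ratio of Ile2h itself on the dye control was 0.22, the seventh highest of 41. With the dye control subtracted it was at -0.14, 0.07 and -0.04, on both sides of 0, with a fitted value of -0.04 (SE 0.12, 95% interval -0.28 to 0.20, adjusted p = 0.949).

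The 2 isoleucine probes can be set against each other within an array, where the scaling on standards cancels. Ile1h exceeded Ile2h by 0.28, 0.21 and 0.21 in log2 in ratios 1, 2 and 3, a mean of 0.23 ± 0.039 (SD, n = 3). The differences after subtraction of the dye control were 0.36, 0.29 and 0.29, since Ile2h had the higher ratio of the 2 on the dye control, a mean of 0.31 ± 0.039 (SD, n = 3). Its sign was the same in 3 of 3 ratios either way. An exact two-sided sign-flip test gave p = 0.25, the smallest that 3 ratios allow. Ratios 1 and 2 share their knockdown RNA and Cy3 values and are not independent, and with both averaged into 1 value the difference was 0.23 (exact p = 0.50). In the authors' deposited ratios the difference was 0.37, 0.55 and 0.12, with the same sign but a wider spread. With Val1h against Val4h, 2 such pairs were compared, and adjustment over them cannot bring either p under 0.25.

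Val1h was the brightest of the 4 probes in its raw intensity. Its 12 bright spots on array 1 had a median of 7636.5 in Cy3 (1408 to 12244) and 4461 in Atto635 (788 to 6931). In ratio 3 the medians were 8832 in Cy3 (6440 to 10381) and 2509 in Atto635 (1935 to 3043). The log2 ratios were 0.08 in ratio 1, 0.11 in ratio 2 and 0.57 in ratio 3. Ratio 3, the one with knockdown RNA 2, stood far above ratios 1 and 2. The SD of 0.27 was the widest of the 4 probes in the main processing. The fitted value was 0.30 (SE 0.13, 95% interval 0.04 to 0.56, limma adjusted p = 0.0905). Without ratio 1 it was called at 0.34 (adjusted p = 2.7e-05), in a fit where 31 of the 41 human probes were called higher. Without ratio 3 it was at 0.098 (adjusted p = 0.826), in a fit where 0 of the human probes were called. The fit pools the variance over all probes, so this SE does not reflect the wider spread of Val1h.

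On the dye control array Val1h was at -0.15, 40th of the 41 human probes, and 0 of its 12 bright spots there lay above 0. Subtraction therefore raised it, to 0.23, 0.24 and 0.65. Its ranks among the corrected human probes were second, 11th and first. The fitted value was 0.41 (SE 0.12, 95% interval 0.16 to 0.66, limma adjusted p = 0.0291, higher in 3 of 3 ratios). Variance was largely pooled over the probes here too, so this SE and interval do not reflect the spread of Val1h. Its SD over the 3 ratios was 0.24, against 0.071 for Ile1h, which had nearly the same SE. Without ratio 3 the fitted value was 0.23 (adjusted p = 0.989), and without ratio 1 it was 0.44 (adjusted p = 0.102). In both of these fits 0 of the human probes were called higher or lower. With the spots of the empty blocks 5 and 9 left out for every probe, an alternative chosen after seeing the data, the size was alike at 0.42 but the call was lost (adjusted p = 0.314).

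Val4h, the second valine probe, kept 16 of 16 spots, all bright, in each ratio. On array 1 its 16 spots had a median of 1576.5 in Cy3 (1086 to 1830) and 829.5 in Atto635 (582 to 966), and in ratio 3 the medians were 974 and 291.5. The log2 ratios were 0.18, 0.51 and 0.38, at ranks 4, 5 and 8. All 16 spots of ratio 1 and all 16 of ratio 3 lay above the median human probe, which as spots of 1 RNA are again no replicates. The fitted value was 0.36 (SE 0.13, 95% interval 0.10 to 0.62, limma adjusted p = 0.0555), at rank 5 of 41 and short of a call. Without ratio 1 it was called at 0.44 (adjusted p = 4.4e-07), in a fit where 31 of the 41 human probes were called higher. On the dye control it was at 0.04, below the median probe. With that subtracted it was at 0.13, 0.44 and 0.27, with a fitted value of 0.28 (SE 0.12, 95% interval 0.03 to 0.53, adjusted p = 0.203), again at rank 5 of 41.

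The 2 valine probes did not differ in one direction. Val1h minus Val4h was -0.10, -0.39 and 0.19 in log2 in ratios 1, 2 and 3, a mean of -0.10 ± 0.29 (SD, n = 3; p = 0.75 in the exact two-sided sign-flip test). With the dye control subtracted it was 0.10, -0.20 and 0.38, with 0.09 ± 0.29 as mean and SD over the 3 ratios (p = 0.75 in the same exact test). The spread of 0.29 was larger than either mean, so the order of the valine probes is not resolved by these ratios.

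**Figure D3:**
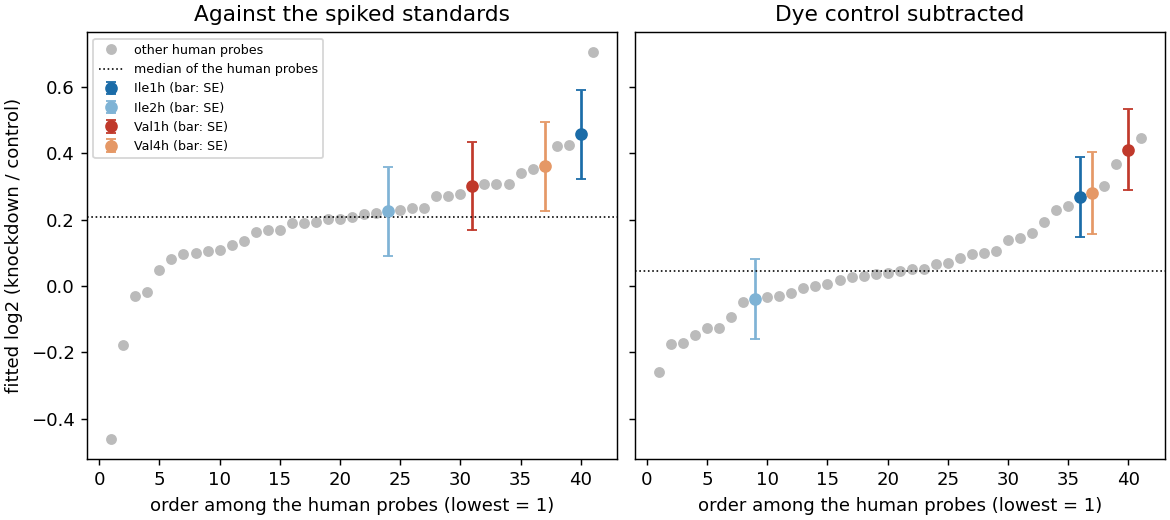
Fitted log2 ratio of the 41 human probes in rising order, with the 4 probes in colour and their SE as bars, and the median human probe as a dotted line, without the dye control (left) and with it subtracted (right). Ile1h is second highest on the left and Val1h on the right, and Ile2h moves from near the median (0.21) to below it (0.05).

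Each channel was also read alone, as the median log2 intensity of the bright spots relative to the median standard of the same channel and array. In Cy3, the level of Ile1h was -2.13 in knockdown RNA 1 and -2.41 in knockdown RNA 2. Ile2h fell between them too, from -3.89 to -4.33, and Val4h from -2.99 to -3.56. Val1h went the other way, from -0.75 to -0.44. In Atto635, control RNA 1, 2 and 3 gave -2.67, -2.65 and -2.90 for Ile1h, and -4.07, -4.21 and -4.66 for Ile2h.

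For Val4h the 3 control levels were -3.28, -3.55 and -3.99, and for Val1h they were -0.92, -0.68 and -1.08. Control RNA 3, which was hybridised together with knockdown RNA 2, had the lowest level of the 3 controls for each of the 4 probes. The same count over all human probes was not made, so this is not shown to be particular to the 4. Between array 1 and array 3, therefore, Ile1h, Ile2h and Val4h were lower in both channels, while Val1h was lower by 0.16 in the control channel and higher by 0.31 in the knockdown channel. The high ratio of Val1h in ratio 3 thus lay in both channels, more in Cy3. These are single readings per culture, the culture and the array cannot be told apart, and no test was made. The 2 knockdown levels of Ile1h lay above its 3 control levels, and those of the other 3 probes overlapped theirs, a comparison across dyes that carries any dye bias. How many of the 41 human probes separate in this way was not counted, so it is not shown to be particular to Ile1h. Without the dye control, 37 of the 41 had a fitted ratio above 0.

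**Figure D4:**
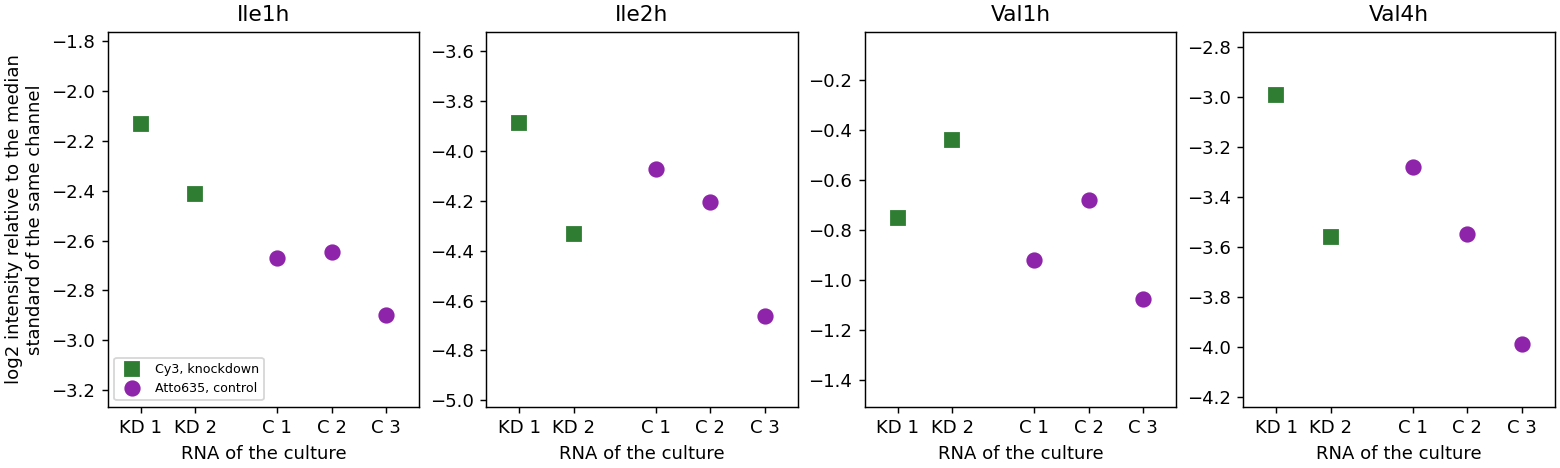
Log2 intensity of each probe relative to the median standard of the same channel, for knockdown RNA 1 and 2 in Cy3 (KD, squares) and control RNA 1, 2 and 3 in Atto635 (C, circles). Each panel spans the same height in log2, and Val1h alone is higher in KD 2 (-0.44) than in KD 1 (-0.75).

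Ratio 2 rests on other ground than ratios 1 and 3. Its scanner table matched that of ratio 1 in 56 of 57 columns, and the remaining one held its Atto635 intensities, so its Cy3 values are those of ratio 1. Over the bright spots of a probe, the log2 intensities of the 2 channels correlated at 0.993 for Ile1h, 0.957 for Ile2h, 0.998 for Val1h and 0.963 for Val4h in ratio 1 (n = 12, 16, 12 and 16 spots). In ratio 3 the values were 0.972, 0.843, 0.963 and 0.953 (n = 11, 13, 12 and 16). In ratio 2 they were 0.206, 0.024, 0.285 and 0.262 (n = 11, 15, 12 and 16). These are descriptions, since the spots share 1 labelled RNA and the size and shape of the printed spot. Whether the Atto635 values of ratio 2 were read from the same array as its Cy3 values is not known here, and that doubt touches each ratio 2 value above, the differences between probes included.

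The spread of the spot ratios moved with this. For the bright spots of Ile1h the SD was 0.057 in ratio 1, 0.81 in ratio 2 and 0.037 in ratio 3, and for Val1h it was 0.049, 0.82 and 0.059. In ratio 2, 9 of the 11 bright spots of Ile1h and 5 of the 12 of Val1h lay above the median human probe. Taking the median of each channel before the ratio, an alternative chosen after seeing the data, gave 0.71 in place of 0.52 for Ile1h in ratio 2, and -0.17 in place of 0.11 for Val1h. With dim spots left out as well the values were 0.40 and -0.16. For Ile2h the value in ratio 2 was 0.23 by channel medians against 0.31, and for Val4h 0.46 against 0.51. The ratio 2 value of Val1h thus had no settled sign.

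**Figure D5:**
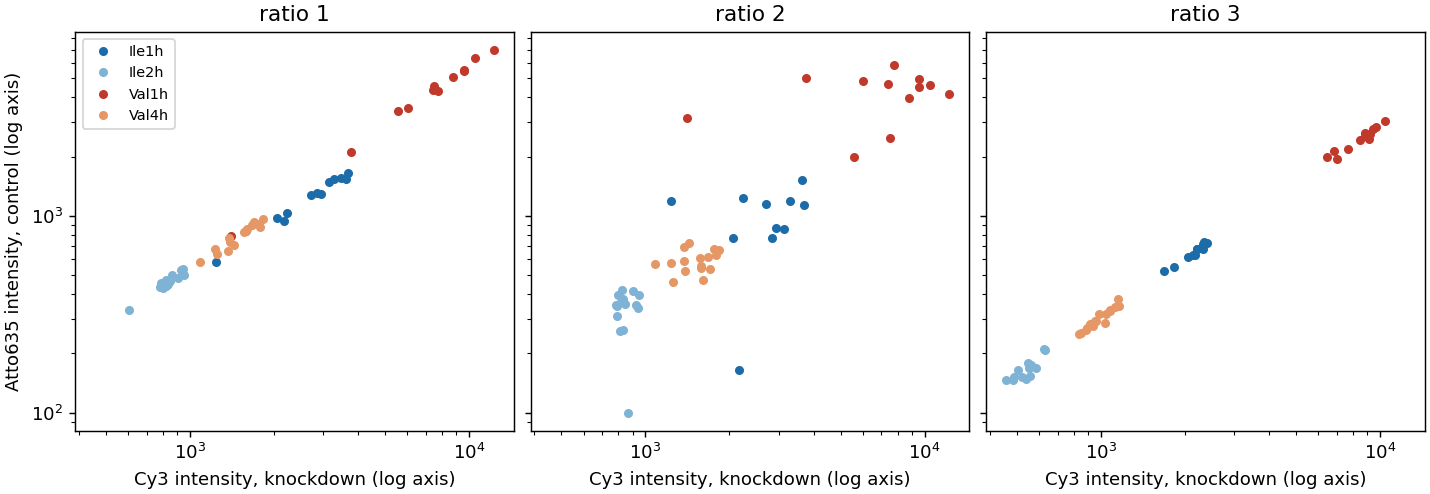
Atto635 intensity (control) against Cy3 intensity (knockdown) of each bright spot of the 4 probes, both on log axes, in ratios 1, 2 and 3. The spots of a probe fall on a line in ratios 1 and 3 and scatter in ratio 2, where the correlations within a probe were 0.024 to 0.285.

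The authors' deposited table holds a linear ratio per probe, which over 43 probes followed the dye-subtracted values (r = 0.968, 0.971 and 0.946 in ratios 1, 2 and 3) more closely than the uncorrected ones (0.662, 0.670 and 0.521). In that table Ile1h was at 1.22, 1.56 and 1.23, Ile2h at 0.947, 1.07 and 1.13, Val1h at 1.22, 1.28 and 1.61, and Val4h at 1.17, 1.42 and 1.36. Its order for Val1h, highest in ratio 3, was that of the scanner values. Fitted in the same way, the authors' deposited table gave 15.0% of its 40 human probes called higher and 0% lower (0 lower at an unadjusted p under 0.05 in limma). Of the members, Ile1h, Val1h and Val4h were called higher there, at log2 0.40 (SE 0.12, adjusted p = 0.0171), 0.48 (adjusted p = 0.00317) and 0.40 (adjusted p = 0.0171). Ile2h was at 0.08 (adjusted p = 0.691). The values come from the same arrays and are no independent evidence.

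The probes nearest to each member over the 3 uncorrected ratios, by Euclidean distance in log2, were Arg3h (0.19) and Val4h (0.21) for Ile1h, with a median distance of 0.47 over the other human probes. For Ile2h they were Ala1h (0.034) and Leu1h (0.074), against a median of 0.20. For Val4h they were Glu2h (0.097) and Thr5h (0.099), against 0.34. Val1h had no close neighbour: the nearest were Arg4h and Phe1h, both at 0.29, against a median of 0.39.

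Leucine is the remaining branched-chain amino acid. Its 5 probes had a median of 0.16 without and 0.01 with the dye control subtracted, against 0.21 and 0.05 over the 41 human probes, and limma called 0 of them either way (1 and 0 at an unadjusted p under 0.05). They ran from -0.18 for Leu6h to 0.35 for Leu4h (adjusted p = 0.0558). The 9 branched-chain probes together had medians of 0.22 and 0.02, with 1 called higher and 0 lower in each case, the called one being Ile1h or Val1h. Over the 41 human probes the counts were 4 higher and 1 lower without the dye control, and 2 and 0 with it. The 4 isoleucine and valine probes alone had medians of 0.33 and 0.27. All 4 lay above the median human probe without the dye control and 3 of 4 with it.

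Isoleucine and valine are among the amino acids with a human tRNA that carries inosine at the first anticodon position. The 22 probes for these amino acids had a median of 0.25 without the dye control, against 0.19 for the other 19 probes. Of the 22, 3 were called higher and 1 lower, and of the other 19, 1 and 0. The lowest of the 22 was Arg1h at -0.46 and the highest Ile1h. The medians after subtraction of the dye control were 0.06 and 0.04. Of the 22, 1 was then called higher and 0 lower (5 higher and 0 lower at an unadjusted p under 0.05 in limma). Of the other 19, 1 was called higher and 0 lower (1 and 1 at an unadjusted p under 0.05). The ends of the list of 22 were Leu6h at -0.17 and Val1h at 0.41. Single probes of this list may read isoacceptors without inosine.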

How the data were processed

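The authors deposited two-colour scanner tables with 800 spots per array, holding background-subtracted spot intensity in each channel, flags and the percent of saturated pixels, per the file headers. They also deposited a linear ratio per probe, whose scale and centring are not given in the sources used here. Per the labels' protocols, cultures were independent, and each standard was spiked at 4 pmol into 2 µg of RNA. Background was modelled by normexp with an offset of 50 (limma 3.58.1, R 4.3.3). A probe's value was the median log2 ratio of Cy3 over Atto635 over its unflagged spots, and the median over the 4 standards was set to 0 on each array, after subtraction where the dye control was used. Median spot intensity was 2329 to 2935.5 in Cy3 and 788 to 1647.5 in Atto635 over the 3 ratios, with 24 flagged spots in ratios 1 and 2 and 46 in ratio 3. The number of arrays limits the precision.

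The fit (lmFit, eBayes) covered all 41 human probes, treated ratios that share a knockdown RNA as a block at an assumed correlation of 0.5, and p-values were adjusted over all of them by Benjamini-Hochberg. The variance was pooled fully without the dye control and largely with it subtracted. Named probes are the 4 members, the 2 nearest to each, the ends of each list and the standards. Members, lists and alternatives were chosen with earlier results of these data known. Probe sequences were not used here.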

Additional observations from a re-analysis of the deposited data

Results flagged for a closer look

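Spots printed with water, which enter no comparison, carried signal by mean pixels. Their median Cy3 intensity was 4207.5 on the array of ratios 1 and 2, brighter than 3 of the 4 isoleucine and valine probes. On the array of ratio 3 it was 11207, brighter than all 4, and on the dye control array it was 5925, brighter than 3 of 4. Of all 41 human probes, 26, 40 and 33 were dimmer than the water spots on these arrays in turn. By median pixels the water spots were at 33, 290 and 116, while Ile1h was at 3304, 2262 and 2967 and Ile2h, the dimmest of the 4, at 925.5, 558 and 1145. The part of this signal in the results was not tested.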

How the results depend on the processing

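Without the dye control 4 probes were called higher and 1 lower, and with it 2 and 0. Ile1h stayed above 0 in 23 of 23 alternatives and was called in 18. Its excess over Ile2h kept its sign in 23 of 23, from 0.18 to 0.35. Some of these alternatives could not change it, because scaling cancels within an array. Centring on the median human probe, no scaling, leaving out a standard and taking the ratios as independent all left it at 0.23. Val1h with the dye control subtracted was called in 6 of 20 alternatives. Causes of the changes below were not tested, except that leaving out ratios or averaging them changes the number of values fitted.

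Subtracting the dye control moved Ile1h to 0.27, Ile2h to -0.039, Val1h to 0.41 and Val1h minus Val4h to 0.090, the branched-chain and inosine list medians to 0.017 and 0.058, and the calls to 2 higher and 0 lower. Loess gave 0.21 for Ile1h (limma adjusted p = 0.132), -0.010 for Ile2h, 0.057 for Val1h minus Val4h, list medians of 0.015 and 0.021, and 0 calls either way. The deposited ratios gave 0.48 for Val1h, 0.40 for Val4h, 0.053 for Val1h minus Val4h, a branched-chain median of 0.081 and 0 lower. Without scaling, Ile1h, Ile2h, Val1h and Val4h were at 1.40, 1.17, 1.25 and 1.31, all called, the list medians at 1.17 and 1.20, with 40 higher and 0 lower. Centring on the median human probe gave 0.25 for Ile1h (still called, adjusted p = 0.0103), 0.014 for Ile2h, 0.089 for Val1h and 0.15 for Val4h, list medians of 0.014 and 0.044 and 4 lower (1 with the dye control). Plain subtraction gave 0 lower and a branched-chain median of 0.35, and normexp with offset 0 gave 0.35 too, 0.46 for Val4h, 7 higher and 0 lower. The mean of the spots gave 0.48 for Ile1h (adjusted p = 0.345), 1 higher and 0 lower. Median pixels, used for ratios 1 and 3 only because ratio 2 repeats those of ratio 1, gave 0.41 for Ile1h (adjusted p = 0.0736) and 1 higher, where leaving out ratio 2 alone gave 0.42 (adjusted p = 0.0337) and 2 higher. Leaving out dim spots, with spot ratios or channel medians, gave 0 lower. With E.c. Lys-2 left out of the standards, Val1h was called at 0.30 and Val4h at 0.36, with 11 higher, and without Yeast Phe-3 Val4h was called at 0.38, with 10 higher. Taking the ratios as independent called Ile2h at 0.22, Val1h at 0.25 and Val4h at 0.36, with 20 higher. Averaging ratios 1 and 2 called them at 0.23, 0.33 and 0.36, with 28 higher.

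Ile2h with the dye control subtracted turned to 0.036 (plain subtraction), 0.041 (offset 0), 0.032 (no scaling), 0.047 (mean of spots), 0.031 (channel medians) and 0.022 (channel medians without dim spots). Val1h lost its call at 0.45 (plain subtraction), 0.44 (offset 0), 0.48 (no scaling), 0.38 (mean of spots) and 0.39 (scale without E.c. Tyr-2 or without E.c. Ala-5), each with 0 called higher. It lost it too at 0.31 (channel medians without dim spots) and 0.42 (blocks 5 and 9 left out), again with 0 higher. With 1 called higher, it lost it at 0.29 (flagged spots kept), 0.41 (dim spots out), 0.33 (median pixels of ratios 1 and 3, against 0.44 and a kept call without ratio 2 alone) and 0.40 (channel medians). Ile1h and Val4h were called at 0.27 and 0.28 with independent ratios (8 higher, 1 lower) and at 0.27 and 0.28 with ratios 1 and 2 averaged (10 higher, 3 lower). Channel medians and the removal of blocks 5 and 9 were chosen after seeing the data.

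Leaving out each ratio in turn gave 0.42 to 0.50 for Ile1h, 0.17 to 0.28 for Ile2h, 0.098 to 0.34 for Val1h and 0.28 to 0.44 for Val4h. Without ratio 1 all 4 were called higher, among 31 of the 41 human probes called higher. The ranges with the dye control were 0.23 to 0.30, -0.091 to 0.012, 0.23 to 0.44 and 0.20 to 0.36. Calls ran from 0 to 31 higher and 0 to 2 lower, and with the dye control from 0 to 2 higher and 0 to 0 lower. Ile1h minus Ile2h ran from 0.21 to 0.25, Val1h minus Val4h from -0.24 to 0.045 (above 0 without ratio 2), and the list medians from 0.19 to 0.28 and 0.20 to 0.32. Each sample is itself a ratio of knockdown over its paired control, so the pairing is held in each fitted value and no further paired analysis was made.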
